A study of Mus musculus with 12 samples.

Results

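Transcripts of 10 annexin and S100 genes were followed across mouse haploid embryonic stem cells (ESCs) with and without a knockout (KO) of Etl4. The set held 8 annexins (Anxa1, Anxa2, Anxa3, Anxa4, Anxa5, Anxa6, Anxa7 and Anxa11) and 2 S100 genes (S100a10 and S100a11), chosen by symbol out of 24421 symbols in each count table. All 10 passed the filter on low counts in both tables. The set was proposed with results of these data known, because Anxa2 had the largest deficit among these genes in OdG KO cells. The OdG contrast of KO with wild type (WT) is therefore described without a test of these genes.

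The 12 libraries came from androgenetic haploid ESCs on a C57BL/6 background, whose only chromosome set comes from the father. The parental line OdG gave 2 libraries of KO line 1, 2 libraries of KO line 2 and 2 WT libraries. The parental line EG1 gave 3 libraries of 1 KO line and 3 WT libraries. The genotype is given as Etl4 KO or wild type. The guide, the deleted stretch, the clonal origin of the lines, the use of feeder cells and the share of cells still haploid are not stated in the labels. Nor do they say that replicates were separate cultures, so the p-values cover library-to-library spread alone, and that spread may be technical.

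Annexins are cytosolic proteins that bind negatively charged phospholipids when calcium rises, so that they gather on the inner face of the plasma membrane and on endosomes. Annexin A2, encoded by Anxa2, binds a dimer of the S100 protein S100a10 (also called p11), and the complex links membranes to actin and to the scaffold Ahnak. Free S100a10 protein is unstable without annexin A2, and at the cell surface the complex binds plasminogen and its activator. S100a11 binds annexin A1 in the same way, while annexins A7 and A11 bind calcium sensors of the penta-EF-hand family.

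Levels are in CPM, counts divided by the scaled library total. Totals ran from 16110028 to 19706599 counts per library, so 16.11 to 19.7 counts made up 1 CPM. Etl4 transcripts were reduced to 97.2 and 101 CPM in OdG KO line 1 and to 109.6 and 114.2 CPM in line 2, against 210.4 and 205.8 CPM in OdG WT. They were at 130.9, 133.6 and 132 CPM in EG1 KO, against 264.8, 264.5 and 259.9 CPM in EG1 WT, so the labels and the targeted gene went the same way in every library. The OdG WT libraries stood apart from all others at other loci. Guf1 had 3 counts in each OdG WT library, against 587 to 881 in the 10 other libraries. The trophoblast-associated factor gene Tfap2c had 157 to 200 counts in OdG KO line 1 and 1888 to 1965 in line 2, against 5 to 8 in OdG WT. Every OdG comparison with WT rests on those 2 WT libraries. The 15 ES cell markers were all detected in every group. Their sum was higher in both OdG KO lines than in OdG WT. It was at 9589 to 9647 CPM in KO line 1 and 8959 to 8986 CPM in line 2, against 8349 to 8448 CPM in OdG WT. Between the KO lines the sum was lower in line 2, where Anxa2 was lower too. In OdG KO 14 of the 15 were called higher and 1 lower, beside 29.4% and 30.5% of all genes tested. In EG1 they summed to 10330 to 10570 CPM in KO and 10420 to 10540 CPM in WT. The part of cell state in the OdG results was not tested.

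The upstream sequences of the 2 genes with the largest OdG deficits are shown because both genes were far lower in OdG KO. They are the 180 bases that lie 250 to 71 bases before the start that RefSeq gives on GRCm38.p6, on the gene's own strand, at chr9:69453433-69453612 (plus strand) for Anxa2 and chr6:86793655-86793834 (minus strand) for Anxa4. Capitals mark matches to the motifs searched.
Anxa2: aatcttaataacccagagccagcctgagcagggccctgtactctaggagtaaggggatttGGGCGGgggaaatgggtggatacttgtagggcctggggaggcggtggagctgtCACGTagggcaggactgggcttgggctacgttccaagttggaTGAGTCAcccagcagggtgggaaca
Anxa4: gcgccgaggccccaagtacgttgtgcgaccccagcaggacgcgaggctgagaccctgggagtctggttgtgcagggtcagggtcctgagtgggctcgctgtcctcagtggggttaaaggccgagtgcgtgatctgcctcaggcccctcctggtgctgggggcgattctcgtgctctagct
Of the 10 genes, 7 matched an entry, and Anxa3, Anxa6 and S100a10 did not. The motifs were ACGTG (1 form of the core of hypoxia response elements), TGANTCA (the AP-1 motif), GGGCGG (a GC box), CCAAT (the NF-Y motif) and TATAAA (known from core promoters). Each was read on both strands. Other forms of the hypoxia core, such as GCGTG, were not searched. The Anxa2 window held 1 GGGCGG, 1 ACGTG read on the opposite strand (CACGT as printed) and 1 TGANTCA, which begin 190, 137 and 95 bases before the RefSeq start. That start lies downstream of the first base of Anxa2 in GENCODE M21 (69453620), so the window ends just before the GENCODE gene. The windows of Anxa4, Anxa5, Anxa1, Anxa7 and Anxa11 held 0 matches to these 5 motifs. The S100a11 window held 2 overlapping ACGTG matches and 1 TGANTCA. Among 27025 promoters, windows of the same length held ACGTG in 11.3%, TGANTCA in 5.08%, GGGCGG in 20.9%, CCAAT in 25.4% and TATAAA in 8.68%. These matches are letters in a window and were not tied to binding by any data used here.

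Anxa2 lies on chromosome 9 from 69453620 to 69491795 (mm10, plus strand, GENCODE M21), and the antisense gene Gm16144 overlaps it on the other strand. Anxa2 had 48.4 and 45.5 CPM in OdG KO line 1 and 35.7 and 34.7 CPM in line 2, against 159.7 and 169.7 CPM in OdG WT. All 4 OdG KO libraries lay far below both WT libraries. Taken as the mean of both KO lines, Anxa2 was at 24.7% of its WT level (log2 -2.02 ± 0.04, standard error), and 117 of the 14413 genes tested in this table had a lower log2 fold change. Line 1 stood at 28.6% of WT (log2 -1.81 ± 0.05) and line 2 at 21.4% (log2 -2.23 ± 0.05). Both lines were set against the same WT libraries, so these values are not independent. In bulk RNA, fewer cells with a transcript and less of it per cell cannot be told apart. Without a known strand setting for the counts, reads of Anxa2 and its antisense partner cannot be told apart either. The same holds for Anxa4 and Anxa1, which Gm44036 and 1500015L24Rik, respectively, overlap on the other strand.

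**Figure D1:**
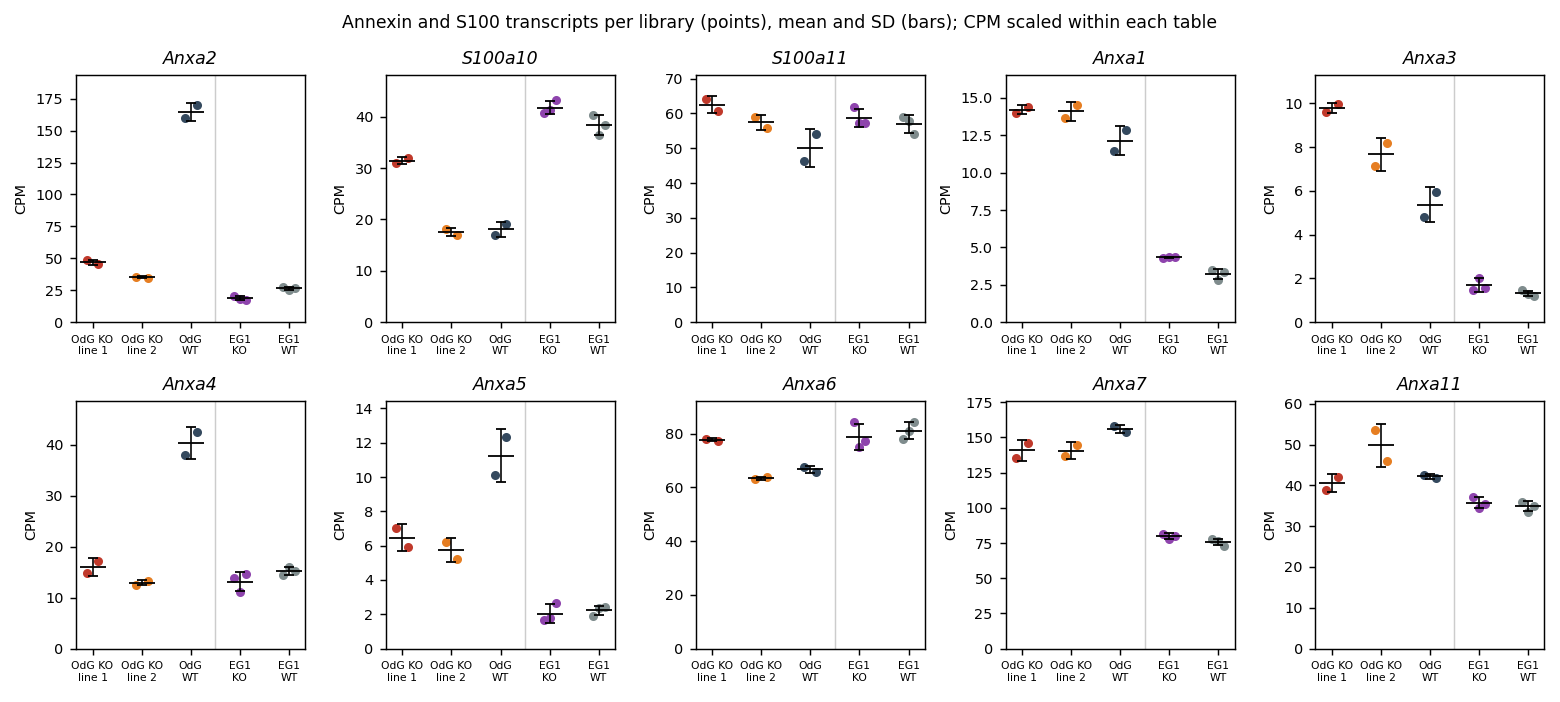
CPM of the 10 annexin and S100 transcripts in each library (points), with mean and SD (black bars), for OdG KO line 1, OdG KO line 2, OdG WT, EG1 KO and EG1 WT from left to right. Anxa2 sits between 34.7 and 48.4 CPM in OdG KO and at 159.7 and 169.7 CPM in OdG WT; the grey line separates the tables, which were scaled separately.

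The contrast that picked Anxa2 used no EG1 library, so EG1 KO could be tested against EG1 WT. Earlier EG1 results were, however, known when the genes were chosen. EG1 had 1 KO line, so an effect of the knockout cannot be told apart from a difference between lines. The OdG KO lines differed from each other at Anxa2 by log2 -0.42 (line 2 over line 1). Anxa2 had 20.8, 18.4 and 17.6 CPM in EG1 KO, against 27.6, 25.3 and 26.5 CPM in EG1 WT. Every KO library was below every WT library. Anxa2 fell in EG1 KO to 71.5% of its WT level (log2 -0.48 ± 0.075, adjusted p = 2.8e-05, edgeR's quasi-likelihood test with Benjamini-Hochberg adjustment over 14016 genes). It was the 1 of 10 genes called lower, and 0 of 10 were called higher; over all genes tested, 4.06% were called lower and 3.6% higher at an adjusted p under 0.05. With total counts in place of trimmed-mean scaling, the share of higher genes among all called went to 32.2%, against 47% with that scaling, and the Anxa2 call held (log2 -0.51, adjusted p = 1.2e-05). Leaving out any 1 of the 6 libraries gave log2 values between -0.56 and -0.44, and the adjusted p was 0.00059 at most.

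The Anxa2 deficit in KO cells was larger in OdG than in EG1. In 1 fit over all 12 libraries the KO effect in OdG minus that in EG1 was log2 -1.54 ± 0.09, given without a test because it holds the contrast that picked the gene. The WT lines themselves differed: on a scaling over all libraries Anxa2 averaged 26.7 ± 1.13 CPM in EG1 WT (SD, n = 3), against 163.7 ± 6.82 CPM in OdG WT (SD, n = 2), which is 16.3% of the OdG level. On that scale EG1 KO averaged 19.1 ± 1.64 CPM, OdG KO line 2 averaged 34.8 ± 0.80 CPM and line 1 averaged 46.5 ± 1.95 CPM. The ascending order of Anxa2 was thus EG1 KO, EG1 WT, OdG KO line 2, OdG KO line 1 and OdG WT, and the ranges of no neighbouring groups overlapped. Parental line and table cannot be told apart in these levels.

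S100a10, the partner of annexin A2, did not share this pattern. It lies on chromosome 3 from 93555080 to 93564643 (plus strand). S100a10 had 31 and 32 CPM in OdG KO line 1 and 18.2 and 17 CPM in line 2, against 17 and 19.1 CPM in OdG WT. Line 1 was above both other groups, and line 2 overlapped WT. Line 1 stood at 174.3% of WT (log2 0.80 ± 0.09) and line 2 at 97.5% (log2 -0.04 ± 0.09). In EG1, S100a10 had 40.8, 41.3 and 43.3 CPM in KO, against 40.3, 36.4 and 38.4 CPM in WT. The EG1 difference did not pass the test (log2 0.12 ± 0.06, adjusted p = 0.22 by edgeR's quasi-likelihood test, 0.044 unadjusted).

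Set against each other per kilobase of exon, Anxa2 and S100a10 changed places. The ratio of Anxa2 to S100a10 was 0.508 and 0.462 in OdG KO line 1 and 0.639 and 0.662 in line 2, against 3.05 and 2.88 in OdG WT. It was 0.165, 0.145 and 0.132 in EG1 KO, against 0.222, 0.226 and 0.224 in EG1 WT. Anxa2 thus exceeded S100a10 in the OdG WT libraries, and S100a10 exceeded Anxa2 in the 10 others. Whether the ratio lies above or below 1 depends on the exon lengths taken, 3731 bases for Anxa2 and 1212 bases for S100a10 in GENCODE M21, since the annotation used for counting is not known. The comparison of the ratio between libraries does not depend on them.

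**Figure D2:**
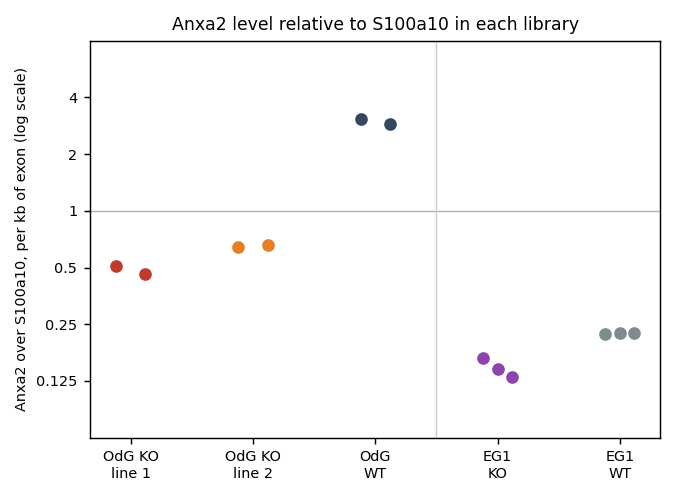
Ratio of Anxa2 to S100a10 in each library, both as CPM per kilobase of exon, on a log axis, for OdG KO line 1, OdG KO line 2, OdG WT, EG1 KO and EG1 WT. The horizontal line marks a ratio of 1: OdG WT lies above it at 3.05 and 2.88, and the other libraries lie between 0.132 and 0.662.

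S100a11, which pairs with annexin A1, was the most abundant of the 10 transcripts per kilobase in every group. It had 122.3 ± 4.73 CPM per kilobase in OdG KO line 1 and 112.4 ± 4.35 in line 2, against 98.1 ± 10.8 in OdG WT (SD, n = 2 each). In EG1 it had 115.1 ± 5.09 CPM per kilobase in KO and 111.5 ± 4.93 in WT (SD, n = 3 each). The S100a11 log2 fold change in EG1 KO was 0.05 ± 0.05 (adjusted p = 0.67, edgeR's quasi-likelihood test). Reads of S100a11 are uncertain, since the annotation holds the processed pseudogenes Gm12854 and Gm7665 at 99% and 98.7% identity over 297 aligned bases, neither of which is listed in the count tables.

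Anxa1, whose protein is known for limiting inflammation, had 13.7 to 14.6 CPM over the 4 OdG KO libraries and 11.5 to 12.8 CPM in OdG WT. In EG1 it had 4.28 to 4.37 CPM in KO and 2.86 to 3.49 CPM in WT. The groups did not overlap in either line, but the EG1 difference missed the threshold (log2 0.42 ± 0.16, adjusted p = 0.12 by edgeR's quasi-likelihood test, 0.015 unadjusted). Anxa3, known in humans from neutrophils, was the lowest of the 10 per kilobase in every group. It had 9.63 and 9.97 CPM in OdG KO line 1 and 7.14 and 8.2 CPM in line 2, against 4.81 and 5.94 CPM in OdG WT, so that both lines lay above WT. In EG1 it was under 2.05 CPM throughout, and its difference was not detectable at this depth (log2 0.36 ± 0.26, adjusted p = 0.47).

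Anxa4 and Anxa5 were lower in OdG KO together with Anxa2. Anxa4, an annexin of epithelial membranes, lies on chromosome 6 from 86736840 to 86793584 (minus strand). Anxa4 had 14.7 and 17.2 CPM in OdG KO line 1 and 12.6 and 13.3 CPM in line 2, against 38.1 and 42.5 CPM in OdG WT. Both KO lines lay below WT, at 39.5% of it in line 1 (log2 -1.34 ± 0.09) and 32.1% in line 2 (log2 -1.64 ± 0.10). In EG1, Anxa4 had 13.9, 11.1 and 14.6 CPM in KO, against 14.5, 16 and 15.3 CPM in WT. The EG1 groups overlapped narrowly and the difference did not pass the test (log2 -0.21 ± 0.10, adjusted p = 0.19, edgeR's quasi-likelihood test). On the scaling over all libraries Anxa4 averaged 15.4 ± 0.73 CPM in EG1 WT (SD, n = 3), between the 15.8 CPM of OdG KO line 1 and the 12.75 CPM of line 2.

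Anxa5, the annexin used to stain phosphatidylserine on dying cells, had 7.02 and 5.9 CPM in OdG KO line 1 and 6.22 and 5.22 CPM in line 2, against 10.1 and 12.3 CPM in OdG WT. Both lines were below WT, and they overlapped each other. Averaged over the lines, Anxa5 was at 54.2% of WT (log2 -0.88 ± 0.13). In EG1 it had 1.65, 1.76 and 2.66 CPM in KO, against 1.91, 2.35 and 2.42 CPM in WT, and the groups overlapped (log2 -0.14 ± 0.23, adjusted p = 0.78, edgeR's quasi-likelihood test). At 106 counts over the 3 EG1 KO libraries and 124 over the 3 WT libraries, a difference of this size was not detectable.

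The remaining 3 annexins differed less from WT. Anxa6, built of a doubled annexin core, had 78.2 and 77.3 CPM in OdG KO line 1 and 63.1 and 63.8 CPM in line 2, against 67.8 and 65.7 CPM in OdG WT, so that the lines lay on opposite sides of WT. In EG1 it had 74.9 to 84.4 CPM in KO and 78.1 to 84.3 CPM in WT (log2 -0.04 ± 0.05, adjusted p = 0.67, edgeR's quasi-likelihood test). Anxa7 (synexin, known for fusing secretory granules) had 135.4 to 146.3 CPM over the 4 OdG KO libraries, below the 157.9 and 153.9 CPM of OdG WT (log2 -0.15 ± 0.04). In EG1, Anxa7 lay the other way, with 81.7, 77.9 and 80.3 CPM in KO against 77.7, 76.2 and 73 CPM in WT, but did not pass the test (log2 0.08 ± 0.05, adjusted p = 0.32). Anxa11, which tethers RNA granules to lysosomes, had 39 and 42.2 CPM in OdG KO line 1 and 53.6 and 46 CPM in line 2, against 42.7 and 41.7 CPM in OdG WT. In EG1 it had 34.6 to 37.2 CPM in KO and 33.6 to 36.1 CPM in WT (log2 0.04 ± 0.06, adjusted p = 0.80). Anxa11 reads are uncertain, since the annotation places pseudogenes with up to 100% identity over 657 bases and the antisense gene Anxa11os beside it.

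Across the 10 genes, the OdG KO libraries lay wholly below WT for 4 (Anxa2, Anxa4, Anxa5 and Anxa7), wholly above for 3 (Anxa1, Anxa3 and S100a11) and overlapped WT for 3 (Anxa6, Anxa11 and S100a10). Over all 14413 genes, 28.4% did not overlap and were lower, and 27.1% did not overlap and were higher. Nothing is read from these counts, since the contrast chose the genes. Together the 10 transcripts summed to 441.5 and 451.5 CPM in OdG KO line 1 and to 405.8 and 403.4 CPM in line 2, against 555.6 and 577.8 CPM in OdG WT. Anxa2 made up 11 and 10.1% of that sum in line 1 and 8.8 and 8.59% in line 2, against 28.7 and 29.4% in OdG WT. In EG1 it made up 5.97, 5.69 and 5.26% in KO, against 8.1, 7.61 and 7.94% in WT.

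**Figure D3:**
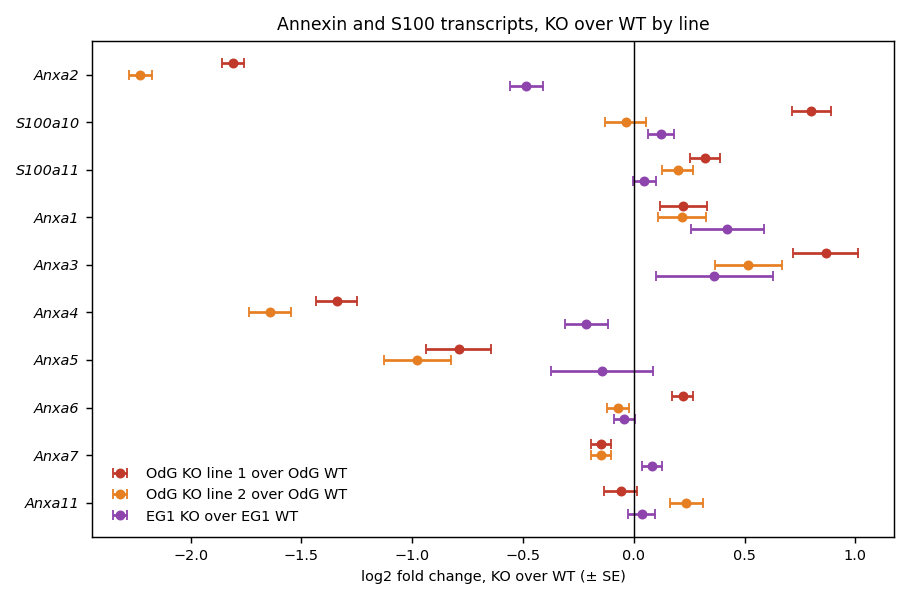
Log2 fold change of KO over WT with its standard error for each of the 10 transcripts, in OdG KO line 1, OdG KO line 2 and EG1 KO. Anxa2 lies farthest left in all 3 lines, at -1.81, -2.23 and -0.48, and S100a10 lies at 0.80, -0.04 and 0.12.

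The OdG KO lines were also compared with each other, a contrast that does not enter the mean of both lines against WT. Line 2 was lower than line 1 for 4 of the 10 genes and higher for 1, where 19.2% of all 14413 genes were called lower and 18.6% higher. S100a10 fell most, to 55.9% of line 1 (log2 -0.84 ± 0.09, adjusted p = 6.6e-07, edgeR's quasi-likelihood test). S100a11, on the same chromosome from 93520488 to 93526287, showed no call (log2 -0.12 ± 0.07, adjusted p = 0.16). Anxa2 fell to 74.85% of line 1 (log2 -0.42 ± 0.06, adjusted p = 2.9e-05), and Anxa6 fell by 0.29 on the log2 scale (± 0.05, adjusted p = 0.00011). In each of these 3 called genes both line 2 libraries were below both line 1 libraries.

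The other calls between the lines were less firm. Anxa11 rose in line 2 (log2 0.30 ± 0.07, adjusted p = 0.0045, edgeR's quasi-likelihood test), but the call was lost without replicate 1 of line 1 (adjusted p = 0.08) or of line 2 (adjusted p = 0.12). Anxa4 fell (log2 -0.30 ± 0.11, adjusted p = 0.038), and the adjusted p was 0.29 without replicate 2 of line 1, 0.18 and 0.092 without replicate 1 or 2 of line 2, 0.059 with total-count scaling and 0.12 with DESeq2. Anxa3 missed the threshold (log2 -0.35 ± 0.14, adjusted p = 0.053) and passed it without replicate 1 or 2 of OdG WT (adjusted p = 0.031 and 0.033). Anxa1, Anxa5 and Anxa7 were not called, with adjusted p of 0.97, 0.40 and 1.

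Markers of other cells moved with some of these values. The 15 fibroblast (feeder) markers summed to 56.2 to 60.2 CPM in OdG KO line 1 and 38.1 to 40.6 CPM in line 2, against 68 to 70.4 CPM in OdG WT. Fibroblasts are known to express Anxa2. Single markers did not share 1 order. Pdgfrb averaged 15.35 ± 0.066 CPM in line 1 and 8.84 ± 1.3 CPM in line 2, against 30.5 ± 1.55 CPM in OdG WT (SD, n = 2 each). Tagln averaged 9.49 ± 0.95 CPM in line 1 and 4.67 ± 0.14 CPM in line 2, against 5.38 ± 1.38 CPM in WT. Acta2, Col1a1 and Col5a1 also averaged higher in line 1 than in WT. Of 9 tested fibroblast markers, 1 was called higher in OdG KO and 5 lower, beside 29.4% and 30.5% of all genes. Col3a1, Lum and Postn were at 0 in line 1, Twist2 and S100a4 in line 2 and S100a4 in WT, and the part of these markers in the OdG results was not tested. In EG1 the marker sum was 40 to 44.1 CPM in KO and 38.3 to 41.5 CPM in WT, with Dcn, Lum and Postn at 0 in both. Of 6 tested fibroblast markers there, 1 was called higher and 0 lower, beside 3.6% and 4.06% of all genes. The 1 called was Col1a1 (log2 0.58 ± 0.14, adjusted p = 0.0053, edgeR's quasi-likelihood test). The part of these markers in the EG1 results was not tested. The 14 primitive endoderm markers summed to 1699 to 1722 CPM in line 1 and 1373 to 1380 CPM in line 2, against 1692 to 1768 CPM in OdG WT. Of 13 tested primitive endoderm markers, 1 was called higher in OdG KO and 7 lower, beside 29.4% and 30.5% of all genes. Lamc1, the 1 called higher, averaged 776.8 CPM in line 1 and 780.9 CPM in line 2, against 656.6 CPM in OdG WT. In EG1 the 14 markers summed to 2041 to 2122 CPM in KO and 1879 to 1909 CPM in WT. Of 12 tested there, 4 were called higher and 0 lower, beside 3.6% and 4.06% of all genes. The 12 trophoblast markers summed to 327.8 to 330.2 CPM in line 1 and 286.1 to 303.3 CPM in line 2, against 278.8 to 280.9 CPM in OdG WT. These sums hide opposite directions. Tfap2c alone averaged 10.4 CPM in line 1 and 112.8 CPM in line 2, against 0.38 CPM in OdG WT. Of 9 tested trophoblast markers, 2 were called higher in OdG KO and 5 lower, beside 29.4% and 30.5% of all genes. Among those lower, Krt19 averaged 9.24 CPM in line 1 and 9.23 CPM in line 2, against 39.4 CPM in OdG WT. In EG1 the 12 markers summed to 109.4 to 112 CPM in KO and 104.7 to 109.3 CPM in WT, with the placental genes Tpbpa and Prl3d1 at 0 throughout. Of 7 tested there, 1 was called higher and 1 lower, beside 3.6% and 4.06% of all genes. By edgeR's quasi-likelihood test these were Gata3 (log2 1.14 ± 0.15, adjusted p = 1.5e-06) and Krt19 (log2 -0.66 ± 0.19, adjusted p = 0.03). The part of the endoderm and trophoblast markers in the results was not tested.

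The genes around annexin function were read from lists written with earlier results known, and are given as counts beside the share over all genes tested. Among all genes, 3.6% were called higher and 4.06% lower in EG1 KO, 29.4% higher and 30.5% lower in OdG KO, and 18.6% higher and 19.2% lower in line 2 against line 1. Among 20 tested genes linking the membrane to the actin cortex, 8 rose and 0 fell in EG1 KO, where 3.6% of all genes rose and 4.06% fell (median log2 0.09, against -0.001 over all genes). These included Flna, an actin crosslinker (log2 0.16 ± 0.03, adjusted p = 0.00041), and the integrin gene Itgb5 (log2 0.23 ± 0.04, adjusted p = 0.00073), both by edgeR's quasi-likelihood test. In OdG KO, 12 of 21 were higher and 6 lower than WT, where 29.4% of all genes were higher and 30.5% lower (median log2 0.17, against -0.01 over all genes). There Flna (log2 0.82 ± 0.03) and the intermediate filament gene Vim (log2 0.91 ± 0.04) were higher, while the galectin gene Lgals1 (log2 -0.84 ± 0.06) and Tagln2 (log2 -0.78 ± 0.04) were lower. Between the OdG lines, 4 of 21 were higher (Vim, Actn4, Ezr and Vcl) and 7 lower in line 2, beside 18.6% and 19.2% of all genes. Vim was higher (log2 0.93 ± 0.05) and Lgals1 was lower (log2 -1.20 ± 0.07).

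Ahnak, the scaffold that the annexin A2 complex binds, was higher in KO of both parents. It had 476.7 to 484.9 CPM in EG1 KO and 375.2 to 413 CPM in EG1 WT, with no overlap (log2 0.29 ± 0.03, adjusted p = 2.6e-07, edgeR's quasi-likelihood test). It had 321.5 to 331.1 CPM in OdG KO line 1 and 305.5 to 313.4 CPM in line 2, against 265.8 to 284.1 CPM in OdG WT. Ahnak belongs to the 16 tested membrane repair genes, of which 1 rose and 2 fell in EG1 KO, beside 3.6% and 4.06% of all genes. Those that fell were the ferlin gene Myof (log2 -0.28 ± 0.08, adjusted p = 0.024) and the acid sphingomyelinase gene Smpd1 (log2 -0.43 ± 0.13, adjusted p = 0.03). In OdG KO, 4 of the 16 were higher (Ahnak, Ehd1, Ehd2 and Chmp4b) and 9 lower, beside 29.4% and 30.5% of all genes, the lower ones including the calpain genes Capn2 (log2 -0.92 ± 0.05) and Capn1 (log2 -0.71 ± 0.05) and the caveolar coat gene Ptrf (log2 -1.14 ± 0.07). Between the OdG lines, 2 were higher in line 2 (Pdcd6ip and Smpd1) and 4 lower (Capn1, Capn2, Capns1 and Ehd2), beside 18.6% and 19.2% of all genes. Capn2 was down most (log2 -1.03 ± 0.07, adjusted p = 2.6e-09).

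Of the 8 tested genes of plasminogen activation, a surface role of the complex, 1 rose and 1 fell in EG1 KO, beside 3.6% and 4.06% of all genes. Plaur, the urokinase receptor gene, rose, with 3.93, 3.58 and 4.86 CPM in EG1 KO, against 1.69, 2.58 and 2.47 CPM in EG1 WT (log2 0.87 ± 0.20, adjusted p = 0.0036, edgeR's quasi-likelihood test). Lrp1, a clearance receptor gene, fell (log2 -0.13 ± 0.03, adjusted p = 0.017). Plat, the tissue plasminogen activator gene, had 1.079 to 1.37 CPM in EG1 KO and 0.338 to 0.672 CPM in EG1 WT and missed the threshold (log2 1.07 ± 0.35, adjusted p = 0.058). Lrp1 had 53.5 to 55.5 CPM in OdG KO line 1 and 29.9 to 31.2 CPM in line 2, against 125.4 to 135.4 CPM in OdG WT. It followed Anxa2 in being lowest in line 2 and highest in OdG WT, but in EG1 it was far higher than in OdG, at 329.8 to 348.3 CPM in KO and 359.5 to 382.1 CPM in WT. In OdG KO, 1 of 9 plasminogen genes was higher (Serpine2) and 2 lower (Lrp1 and Eno1), beside 29.4% and 30.5% of all genes. Serpine2 and Eno1 had few counts in OdG. Serpine2 had 13 counts in line 1 and 27 in line 2, against 7 in OdG WT. Eno1 had 11 counts in line 1 and 17 in line 2, against 54 in OdG WT. In EG1 it had 11 counts in KO and 6 in WT and was not tested. Near-identical sequences were searched for the annexin and S100 set alone, so reads that Eno1 may share with other genes were not checked. Between the OdG lines 1 was higher in line 2 (Mmp2) and 3 were lower (Lrp1, Plaur and Mmp14), beside 18.6% and 19.2% of all genes. The penta-EF-hand list held 7 genes of the family, calpain genes included. Of these, 0 rose and 1 fell in EG1 KO, beside 3.6% and 4.06% of all genes. The gene that fell was Gca, which encodes grancalcin (log2 -0.29 ± 0.08, adjusted p = 0.014, edgeR's quasi-likelihood test). In OdG KO, Gca was higher and the 3 calpain genes Capn1, Capn2 and Capns1 were lower, beside 29.4% and 30.5% of all genes. The other 3, Pdcd6 among them, were not called there. Between the lines, Gca was higher in line 2 and 4 were lower, the same calpain genes and Pdcd6, beside 18.6% and 19.2% of all genes. This list shares Capn1, Capn2 and Capns1 with the membrane repair list.

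The rest of the S100 list held 5 tested genes among 15, one of the 5 being S100pbp, the gene of an S100-binding protein. S100a13, which carries growth factors out of cells without a signal peptide, fell in EG1 KO, with 11.5, 9.31 and 10.6 CPM against 12.6, 13.6 and 17.5 CPM in EG1 WT (log2 -0.48 ± 0.11, adjusted p = 0.0047, edgeR's quasi-likelihood test). It was the 1 of 5 called there, where 4.06% of all genes fell. In OdG it had 11.6 and 11.9 CPM in KO line 1 and 9.39 and 10.4 CPM in line 2, against 29 and 33.5 CPM in WT (log2 -1.53 ± 0.09). In OdG KO 3 of the 5 were lower and 0 higher, where 30.5% of all genes were lower and 29.4% higher. The others that were lower were S100a1 (log2 -1.85 ± 0.12) and S100a16 (log2 -0.91 ± 0.17). Between the lines S100a6 fell in line 2 (log2 -0.67 ± 0.17, adjusted p = 0.0045) and 0 of the 5 rose, where 19.2% of all genes fell and 18.6% rose. Of the 4 other annexins, 2 were tested in each table and 0 were called in EG1 KO or between the OdG lines; in OdG KO, 1 was higher, Anxa10, at 0.786 CPM or less in every library.

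**Figure D4:**
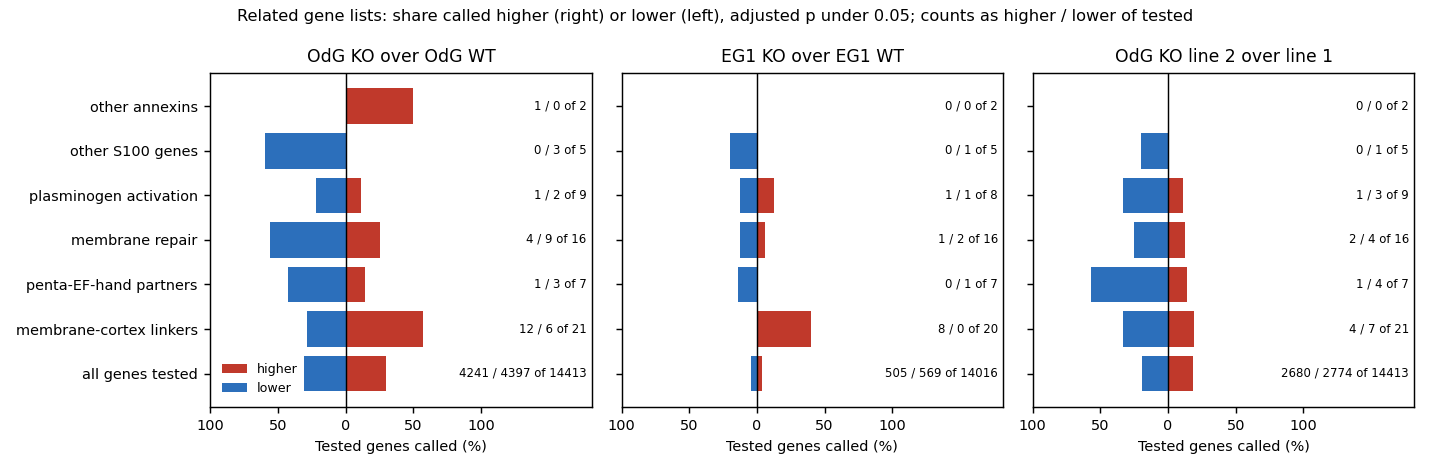
Percent of tested genes called higher (red, right) and lower (blue, left) at an adjusted p under 0.05 in 6 lists and over all genes, with the counts as higher / lower of tested, for OdG KO over WT, EG1 KO over WT and OdG KO line 2 over line 1. In EG1 KO, 8 of 20 membrane-cortex linkers were higher and 0 lower.

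Likeness to Anxa2 was measured by Pearson's r of log2 CPM over the 12 libraries among 9398 genes of at least 10 CPM on average. The libraries fall into 5 groups and share tables, so r mostly reflects 5 group means and is a description. Genes with the highest r included Slc2a1 (0.994) and Scarb1 (0.993), followed by Triobp, Lrrc16b and Arrb1 (0.99 each). Slc2a1, the glucose transporter GLUT1 gene, averaged 894.5 CPM in OdG KO line 1 and 849.2 in line 2, against 2737 in OdG WT, and 489.7 in EG1 KO, against 614.2 in EG1 WT. Slc2a1 followed the same ascending order of groups as Anxa2, as did Scarb1, Triobp, Lrrc16b and Arrb1. Choosing genes by r favours a shared order, so nothing further is read from it. Among the annexins and S100 genes at that level, r with Anxa2 was 0.911 for Anxa4, 0.784 for Anxa7 and 0.429 for Anxa11, and it was negative for Anxa6 (-0.56), S100a11 (-0.63) and S100a10 (-0.73).

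Between the WT lines, the EG1 level was lower than the OdG level for 7 of the 10 transcripts and higher for 3. Besides Anxa2, Anxa5 was at 20.2% of the OdG WT level (log2 -2.31 ± 0.17), Anxa3 at 25% (log2 -2.00 ± 0.20), Anxa1 at 27% (log2 -1.89 ± 0.13), Anxa4 at 38.4% (log2 -1.38 ± 0.09) and Anxa7 at 49.2% (log2 -1.02 ± 0.04). Anxa11 was nearer, at 83.9% (log2 -0.25 ± 0.07). S100a10 was at 215.6% (log2 1.11 ± 0.08), Anxa6 at 123.4% (log2 0.30 ± 0.05) and S100a11 at 115.3% (log2 0.21 ± 0.06). These differences are larger than their standard errors, carry no test, and cannot be told apart from the difference between the tables.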

How the data were processed

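For each parental line the authors deposited a table of raw read counts by gene symbol. HISAT2 2.1.0, featureCounts 1.6.4, CASAVA, DESeq2 and mm10 are listed per the submitters' processing notes. The sources used here do not name the annotation, filters or strand setting. The KO columns of the EG1 table carry no parental name and were matched through the sample descriptions that name that table. All replicates were kept as separate samples, since their counts differed beyond sampling noise (chi-square over degrees of freedom from 1.84 to 3.86). Library totals ran from 16110028 to 19706599 counts.

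The fits used edgeR 4.0.16 (R 4.3.3): filterByExpr, trimmed-mean (TMM) scaling and a quasi-likelihood fit with 1 mean per group. This tested 14413 genes in the OdG table, 14016 in the EG1 table and 14977 over all 12 libraries, and the biological coefficient of variation was 3.34% (OdG) and 3.53% (EG1). Standard errors are the log2 fold change divided by the root of the quasi-likelihood F. Adjusted p-values (Benjamini-Hochberg, two-sided, threshold 0.05) run over all genes tested. OdG KO is the mean of both KO lines on the log2 scale. Values are CPM scaled within each table unless a scaling over all libraries is named. Levels per kilobase use GENCODE M21 exon unions.

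The 10 genes, the lists and the tests were chosen with earlier results of these data known. Named genes are the 10, Etl4, up to 3 called genes per list, direction and comparison by adjusted p (those reaching 5 CPM or more in the higher group), and the 6 genes most like Anxa2, passing over clone-style symbols; 1 of the 6 is not reported here. Guf1, Anxa8 and Anxa10, the list genes outside that rule (Plaur and Krt19 in EG1, Plat, Tagln, Serpine2, Eno1, Mmp2, Ehd2, Pdcd6 and Vcl) and marker genes at 0 were named after their values were seen. The scripts were tested on simulated data. Alternatives were DESeq2 1.42.0, other scalings, no filter, the replicate number as a block, 1 fit over all libraries, the KO libraries as a single group and leaving out each library.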

Additional observations from a re-analysis of the deposited data

Results flagged for a closer look

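The OdG KO lines differed from each other, by edgeR's quasi-likelihood test of line 2 over line 1, at S100a10 (log2 -0.839), Anxa2 (log2 -0.418), Anxa4 (log2 -0.3), Anxa6 (log2 -0.294) and Anxa11 (log2 0.297). S100a10 was the largest of these, with line 1 above OdG WT and line 2 level with it, while Anxa2 was below WT in both lines. Anxa7 lay on opposite sides of WT in the parental lines: every OdG KO library was below OdG WT and every EG1 KO library above EG1 WT. The EG1 separation was narrow (lowest KO library 77.9 CPM, highest WT library 77.7 CPM) and did not pass edgeR's quasi-likelihood test (log2 0.08, adjusted p = 0.32). The difference between the effects, log2 -0.236, was not tested.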

How the results depend on the processing

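The fall of Anxa2 in EG1 KO and in OdG line 2 against line 1 stayed past the threshold in all 12 alternatives run for each. Among these Anxa2 values 0 changed sign. Between the OdG lines, Anxa1 and Anxa7 lay near log2 0 and changed sign in some alternatives. Without each library in turn, 3 to 6 of the 10 genes were called between the OdG lines (5 with all libraries, and 3 without replicate 1 of line 2), and EG1 KO gave 638 to 1213 called genes over all, against 1074. DESeq2 called 703 genes in EG1 KO and 3406 between the OdG lines, against 5454 with edgeR. Treating the OdG KO libraries as a single group called 4609 genes, against 8638. The cause of these shifts was not tested. Same-numbered replicates did not deviate together (r from -0.0643 to 0.0818), so the numbers do not pair the libraries. With the replicate block, 6 of the 10 genes were called between the lines, Anxa3 being gained, 1 was called in EG1 KO, and 906 genes were called over all in EG1. With total counts alone, the Anxa6 value in OdG KO was log2 0.03, against 0.07. Anxa5 and Anxa3 in EG1 are limited by depth, at 73 to 124 counts per group.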

Other observations

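Anxa8, an annexin outside the set, was present in EG1 and nearly absent in OdG. It had 7.7, 5.74 and 8.38 CPM in EG1 KO, against 7.76, 8.07 and 8.33 CPM in EG1 WT, and the groups overlapped (log2 -0.15 ± 0.13, adjusted p = 0.55, edgeR's quasi-likelihood test). In OdG it was at 0.281 CPM or less in every library, with 7 counts in KO line 1 and 9 in line 2, against 5 in WT. Its direction between the parents was thus opposite to that of Anxa2, Anxa5, Anxa3 and Anxa1, and parental line and table cannot be told apart.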
